A study of Mus musculus with 6 samples.

Results

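Amylases and secreted or lysosomal nucleases are enzymes that cells release or store to break down starch, DNA and RNA. They were followed here in prostates of 4-week-old AR3 transgenic mice (3 mice) and of wild-type littermates (3 mice), with 1 array per mouse. AR3 is a splice variant of the androgen receptor that lacks the ligand-binding domain. The labels used here give neither the promoter that drives the transgene nor the number of founder lines, and they name no other allele or treatment in either genotype. Of the 8 genes chosen, 5 had a probe set of their own and were measured, namely Amy1, Dnase1, Dnase2a, Dnase2b and Rnase1, out of 19938 genes measured in all. Each of the 5 had exactly 1 such probe set. Rnase4 and Ang lie on 1 probe set that is annotated to both, and Rnaset2a on probe sets annotated to it and Rnaset2b, so these 3 genes have no value of their own. The genes were selected on their function and on the differences in log2(intensity + 16) between these same 6 mice, which were already known, so their values in this comparison are a description and carry no test of their own.

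Alpha-amylase cleaves starch and glycogen between glucose units, and mice carry a salivary and liver form, Amy1, beside pancreatic forms that lie next to it in the genome. DNase I, the product of Dnase1, is a secreted enzyme that works at neutral pH on free DNA. Dnase2a and Dnase2b encode acid endonucleases of the lysosome type; Dnase2a acts on DNA of engulfed cells in macrophages, and Dnase2b on the nuclear DNA of maturing lens fibre cells. Rnase1 encodes the pancreatic-type secreted ribonuclease, and Ang and Rnase4 encode smaller relatives of it that share a promoter region. Rnaset2a encodes an acid ribonuclease of lysosomes.

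The tissue label was checked against Pbsn, the androgen-driven secretory gene probasin, which had intensities between 7927 and 8325 in transgenic and between 9066 and 9758 in wild-type prostates. Hoxb13, a transcription factor of the prostate epithelium, lay between 1386 and 1434 in transgenic and between 1500 and 1584 in wild-type prostates. Of the 11 measured genes on the list of prostate luminal and secretory markers, 3 were called lower, none was higher, and 7 had an unadjusted p under 0.05 (limma). Their median log2 change was -0.21, against 0.01 over all genes, and their summed intensity ran from 53644 to 57503 in transgenic and from 64965 to 70013 in wild-type prostates. The secretory gene Sbp had 4107 ± 142 in transgenic and 7752 ± 658 in wild-type prostates (SD, n = 3 each), a log2 change of -0.91 ± 0.09 (SE) and, by limma, an adjusted p of 0.0017. Azgp1, which encodes a secreted zinc-binding glycoprotein, had 645.4 ± 66.8 in transgenic and 1474 ± 96.1 in wild-type prostates (SD, n = 3 each), a log2 change of -1.17 ± 0.10 (SE) and, by limma, an adjusted p of 8.6e-04. The secreted trypsin inhibitor gene Spink1 had 5288 ± 155 in transgenic and 7676 ± 534 in wild-type prostates (SD, n = 3 each), a log2 change of -0.53 ± 0.08 (SE) and, by limma, an adjusted p of 0.020. The Spink1 call was lost without wild-type mouse 2 or any 1 transgenic mouse, at an adjusted p of up to 0.122. The part of these differences in the values of Amy1 and Dnase2b was not tested. The seminal vesicle genes Svs2, Svs4 and Svs5 set some mice apart. Their mean log2(intensity + 16) was 7.53, 5.53 and 10.54 in transgenic mice 1, 2 and 3, against 10.05, 5.36 and 5.42 in wild-type mice 1, 2 and 3. Values of the 5 genes and of called list genes are therefore also given without wild-type mouse 1 and transgenic mouse 3, whose seminal vesicle signal was highest in each genotype. Without them the log2 change was -0.95 for Sbp, -1.16 for Azgp1 and -0.57 for Spink1, with adjusted p of 0.019, 0.011 and 0.109 (limma). As a scale of background, the 95th percentile of 1035 olfactory receptor probe sets was taken on each of the 6 arrays, and it lay between 66.9 and 91.9. Precision is limited by there being 3 arrays of each genotype. In whole tissue, a change in the share of a cell type and a change in RNA per cell cannot be told apart.

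Among the 5 measured genes, the amylase Amy1 and the acid nuclease Dnase2b were far higher in transgenic prostates, while Dnase1, Dnase2a and Rnase1 did not pass the threshold. In the limma fit across 28944 probe sets, at an adjusted p of 0.05, 2 of the 5 genes were called, both higher, and none was lower. Over all 19938 genes 1.64% were called, 1.18% higher and 0.456% lower. The 3 transgenic values lay outside the wild-type range for the same 2 genes, as they did for 19.1% of all genes, 10.5% with all transgenic values higher. Because the genes were chosen with this comparison known, nothing is read from these counts.

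Amy1 had intensities of 2029, 1770 and 2059 in transgenic mice 1, 2 and 3, against 135.8, 140.4 and 118.9 in wild-type mice 1, 2 and 3. The genotypes lay far apart, and the lowest transgenic value was 12.6 times the highest wild-type value. The mean was 1953 ± 159 in transgenic and 131.7 ± 11.3 in wild-type prostates (SD, n = 3 each), a ratio of means of 14.8. On the log2(intensity + 16) scale the change, transgenic minus wild-type, was 3.74 ± 0.10 (SE), with a 95% confidence interval from 3.51 to 3.96. By size of rise on this scale its rank was 9 among all measured genes. The rank depends on the added constant, since with 1 the change of Amy1 was 3.88 and that of Dnase2b, which ranked lower here, was 3.97. All 6 arrays lay above the background scale of their own array, so the wild-type signal of Amy1 was itself measurable. The change was 3.72 without wild-type mouse 1 and transgenic mouse 3.

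Signal from the pancreatic amylases, which are close in sequence to Amy1, was not separated from it, since probe sequences were not used here. A group of 6 probe sets is annotated jointly to Amy2a2, Amy2b and Amy2a5, and none of them can be assigned to a single gene. All 6 were called higher in transgenic prostates, with adjusted p in the limma fit between 8.7e-07 and 0.010. Identical values stood for 4 of the 6 probe sets, at 695.2, 615.0 and 747.8 in transgenic mice 1, 2 and 3 and 44.6, 43.9 and 44.9 in wild-type mice 1, 2 and 3. The wild-type values of all 6 lay at or below 44.9, under the background scale, so the sizes of these changes depended on the added constant. In transgenic prostates 5 of the 6 lay above the background scale, with at least 7.28-fold to 8.76-fold higher signal when set against the background scale of the wild-type arrays. The other probe set lay below the background scale in both genotypes and gives no fold. On each of these probe sets, as on that of Amy1, all transgenic mice lay above all wild-type mice.

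Amy1 has a pair of annotated start sites in RefSeq (GRCm38.p6), and the windows around them are shown because AR3 is a transcription factor of the androgen receptor family and Amy1 was called higher. Each window holds 250 bases before and 50 bases after the start, 5′ to 3′ on the gene's strand. Capitals mark the letters TGTTCT on either strand, the half-site of the androgen response element. The upstream window is chr3:113577701-113578000 and the downstream window chr3:113574713-113575012, both on the minus strand.
Amy1, upstream start: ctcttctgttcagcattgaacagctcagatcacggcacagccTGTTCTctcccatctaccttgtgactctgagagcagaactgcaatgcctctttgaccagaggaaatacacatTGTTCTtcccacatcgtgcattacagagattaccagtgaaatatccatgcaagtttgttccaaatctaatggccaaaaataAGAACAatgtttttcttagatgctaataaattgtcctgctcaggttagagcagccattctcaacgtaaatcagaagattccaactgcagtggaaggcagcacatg
Amy1, downstream start: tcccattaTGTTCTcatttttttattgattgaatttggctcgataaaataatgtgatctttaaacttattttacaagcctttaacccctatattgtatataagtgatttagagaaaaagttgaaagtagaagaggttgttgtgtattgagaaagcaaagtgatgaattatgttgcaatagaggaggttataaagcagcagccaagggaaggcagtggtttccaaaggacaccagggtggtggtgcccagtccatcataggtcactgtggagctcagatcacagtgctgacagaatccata

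The upstream window of Amy1 held the half-site 3 times, with the first base of each match at positions -208, -136 and -55 from the start. The downstream window held it once, at -242, and also the letters TATAAA on 1 strand at -63. Of 32851 promoter windows of this length in the RefSeq table, 19% held TGTTCT on either strand at least once and 0.31% held it 3 times or more. TATAAA was in 13.6% of windows. The full androgen response element, a pair of inverted half-sites with 3 bases between them, was in neither Amy1 window and in 0.00913% of all windows. A match is a run of letters and was not tested as a binding site, and the array does not tell which start was used.

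Dnase2b had intensities of 411.3, 305.5 and 379.6 in transgenic mice 1, 2 and 3, against 17.9, 23.9 and 25.3 in wild-type mice 1, 2 and 3. Every transgenic value was clear of the background scale, and every wild-type value lay below that of its own array. The mean was 365.4 ± 54.3 in transgenic and 22.4 ± 3.97 in wild-type prostates (SD, n = 3 each). Since the wild-type values are at background, the fold is given as a bound: set against the background scale of the wild-type arrays, transgenic signal was at least 4.65-fold higher. The change on the log2(intensity + 16) scale was 3.31 ± 0.13 (SE), with a 95% confidence interval from 3.01 to 3.61. It depended on the added constant, at 3.97 with 1 and 2.31 with 64, and was 3.19 without wild-type mouse 1 and transgenic mouse 3. Within the transgenic group mouse 2 had the lowest value of both Amy1 and Dnase2b.

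The Dnase2b window is shown for comparison with those of Amy1, since both genes were higher in the same mice. It is chr3:146615549-146615848 on the minus strand and has no capitals, because TGTTCT was not in it on either strand.
Dnase2b: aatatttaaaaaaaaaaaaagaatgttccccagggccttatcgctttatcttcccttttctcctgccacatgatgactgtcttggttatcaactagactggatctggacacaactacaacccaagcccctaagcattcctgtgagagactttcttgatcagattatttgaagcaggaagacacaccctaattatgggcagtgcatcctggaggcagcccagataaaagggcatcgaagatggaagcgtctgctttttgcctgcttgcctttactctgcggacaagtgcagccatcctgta

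A forkhead factor motif, with the letters TGTTTAC on either strand, was in none of the windows of Amy1 and Dnase2b and in 3.65% of all windows. The E-box CACGTG, found in many promoters of lysosomal genes, was in none of them either and in 7.15% of all windows. The single windows of Dnase2a and Rnase1 held none of the 5 motifs searched, while both overlapping windows of Dnase1 held the half-site, the E-box and the TATA letters once each. No match says only that these letters were not in the windows.

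**Figure D1:**
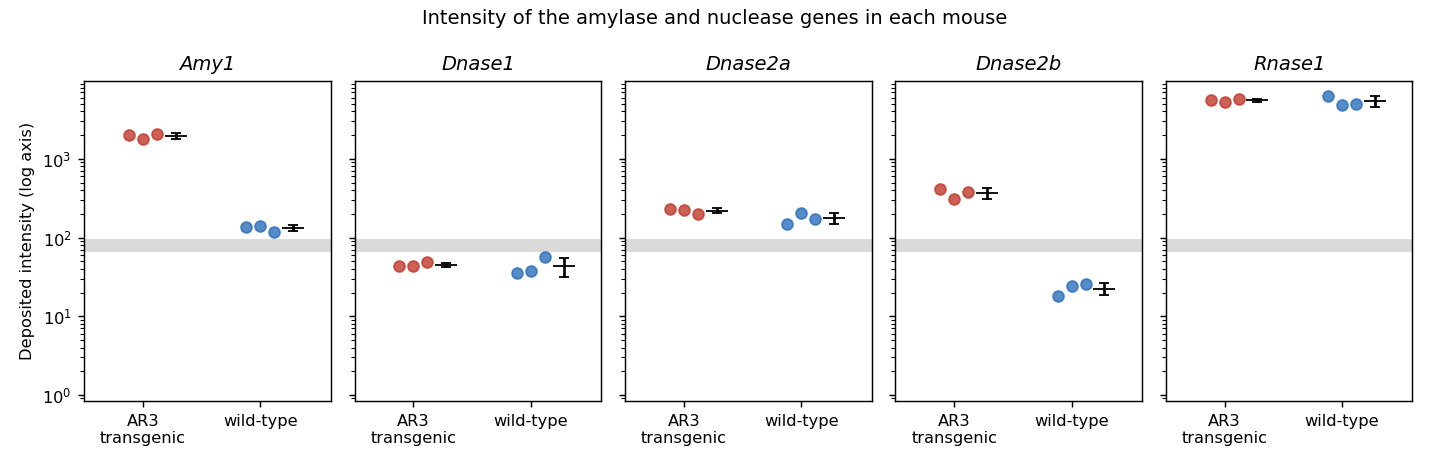
Deposited intensity (log axis) of the 5 measured genes in each mouse, AR3 transgenic (red) left of wild-type (blue), with the mean and SD in black (n = 3 each); the grey band is the background scale, 66.9 to 91.9. Amy1 and Dnase2b separate the genotypes, Dnase1 lies below the band in all 6 mice, and the genotypes of Dnase1, Dnase2a and Rnase1 overlap.

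Dnase2a, the relative of Dnase2b that is active in macrophages, had intensities of 232.6, 226.7 and 200.5 in transgenic mice 1, 2 and 3, against 149.3, 205.9 and 173.3 in wild-type mice 1, 2 and 3. The genotypes overlapped, as wild-type mouse 2 lay above transgenic mouse 3. The mean was 219.9 ± 17.1 in transgenic and 176.1 ± 28.4 in wild-type prostates (SD, n = 3 each), with a log2 change of 0.30 ± 0.12 (SE) and a 95% confidence interval from 0.02 to 0.58. Its change did not pass the threshold in the fit with all mice or in any of the 15 alternatives, over which it ran from 0.15 to 0.41, and it was 0.26 without wild-type mouse 1 and transgenic mouse 3. The change of Dnase2b was larger on this scale, at 3.31, but its size depended on the added constant. The difference between the changes of these genes was not tested.

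Dnase1, the secreted neutral DNase, had intensities of 43.9, 43.9 and 48.2 in transgenic mice 1, 2 and 3, against 35.4, 38.0 and 56.1 in wild-type mice 1, 2 and 3. All 6 values lay below the background scale of their own arrays, so neither genotype had a level above background. The log2 change was 0.07 ± 0.13 (SE), with a 95% confidence interval from -0.24 to 0.37, and -0.06 without wild-type mouse 1 and transgenic mouse 3.

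Rnase1, the secreted pancreatic-type ribonuclease, was bright in all mice, at 5630, 5290 and 5677 in transgenic mice 1, 2 and 3, against 6361, 4802 and 5025 in wild-type mice 1, 2 and 3. The transgenic values lay inside the wild-type range. The mean was 5532 ± 211 in transgenic and 5396 ± 843 in wild-type prostates (SD, n = 3 each). The log2 change was 0.05 ± 0.12 (SE), with a 95% confidence interval from -0.22 to 0.31, and 0.15 without wild-type mouse 1 and transgenic mouse 3. The coefficient of variation within a genotype was 3.81% in transgenic and 15.6% in wild-type mice, among which wild-type mouse 1 lay apart from the other two.

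The other genes of these families were counted on lists chosen with earlier results known. Of 14 measured genes of the RNase A family, none passed the threshold, and 2 had an unadjusted p under 0.05 (limma). Their log2 changes ran from -0.31 for Rnase10, an epididymal relative, to 0.15 for Ear14, with a median of -0.01 against 0.01 over all genes. The mean of only 5 of the 14 lay above the lower end of the background scale in each genotype. Rnase10 and Ear14 lay below it in both. Rnaset2b, of the T2 family, shares its probe sets with Rnaset2a and is not among the 14. Of 26 other DNases, RNases and their inhibitors, none passed the threshold and 4 had an unadjusted p under 0.05. Among these, Rnh1, the cytosolic inhibitor that binds secreted RNases such as that of Rnase1, stood at 1152 ± 97.6 in transgenic and 1119 ± 27.6 in wild-type prostates (SD, n = 3 each). Samhd1, which hydrolyses deoxynucleotides, had the smallest p of that list, with a log2 change of 0.34 ± 0.08 (SE) and an adjusted p of 0.115 (limma). Of 19 measured genes on a list of starch and glycogen enzymes and other glycosidases, such as Lct, Treh and Ganab, none passed the threshold. The pancreatic amylases on that list are not among the 19, as they have no probe set of their own. Their 6 shared probe sets were all called higher. The glycogen phosphorylase Pygb, with 1015 ± 53.0 in transgenic and 1353 ± 76.6 in wild-type prostates (SD, n = 3 each), came closest, with a log2 change of -0.41 ± 0.08 (SE) and an adjusted p of 0.069 (limma).

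Lysosomal genes other than the nucleases gave 1 call among 37. Npc1, the cholesterol exporter of late endosomes and lysosomes, had intensities of 625.8, 661.6 and 676.9 in transgenic mice 1, 2 and 3, against 235.1, 222.6 and 196.5 in wild-type mice 1, 2 and 3. Its log2 change was 1.52 ± 0.09 (SE), with an adjusted p of 1.1e-04 (limma), and it was called in all 16 settings, with a change of 1.55 without wild-type mouse 1 and transgenic mouse 3. The other 36 lysosomal genes did not pass the threshold. Of these the fucosidase Fuca1 had a log2 change of 0.37 ± 0.08 (SE) and an adjusted p of 0.087 (limma), and the protease Ctsd one of 0.14 ± 0.08 (SE) and an adjusted p of 0.55 (limma). The median log2 change of the lysosomal list was 0.09, against 0.01 over all genes. Of the 37 genes, 7 had an unadjusted p under 0.05 (limma), among which Cd63 was lower. The summed intensity of the list was higher in every transgenic mouse, from 33830 to 34418, against 30316 to 32296 in wild-type mice.

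Nucleic acid breakdown yields nucleotides, and 1 of 19 measured genes on a list for the handling of nucleotides and nucleosides passed the threshold. Nt5e, the surface enzyme CD73 that turns AMP into adenosine, had intensities of 241.5, 278.4 and 272.3 in transgenic mice 1, 2 and 3, against 165.1, 167.2 and 140.3 in wild-type mice 1, 2 and 3. The genotypes did not overlap, and the log2 change was 0.69 ± 0.10 (SE) with an adjusted p of 0.013 (limma). The adjusted p was 0.084 without transgenic mouse 2, 0.087 without transgenic mouse 3 and 0.122 without wild-type mouse 1 and transgenic mouse 3 together. A list of 19 genes held sensors of nucleic acids and genes that act after them. Of these Irf7 alone passed, with a log2 change of 0.54 ± 0.10 (SE) and an adjusted p of 0.045 (limma). Irf7 is a transcription factor of the interferon response, and its call was lost without any single mouse, at an adjusted p between 0.073 and 0.227, and at 0.248 without wild-type mouse 1 and transgenic mouse 3 together.

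**Figure D2:**
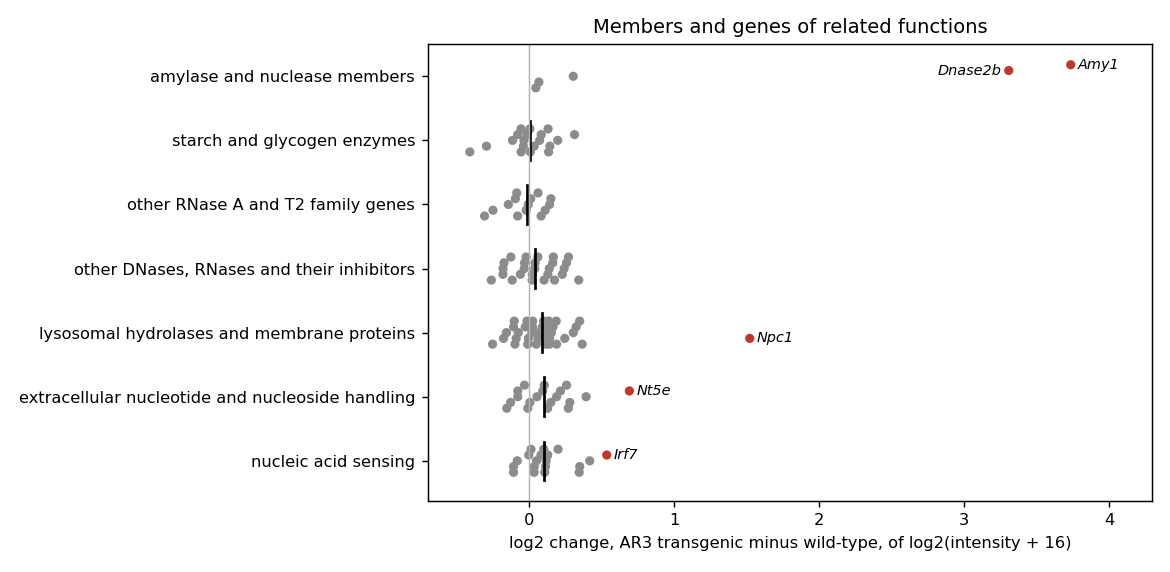
Change on the log2(intensity + 16) scale, AR3 transgenic minus wild-type, of the 5 measured members and of each measured gene on 6 lists of related function; 1 point is 1 gene, red points passed an adjusted p of 0.05 (limma), and black bars are list medians. Amy1 and Dnase2b lie beyond 3, while the list genes other than Npc1 lie between -0.41 and 0.69.

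Salivary gland and pancreas are the classic sources of amylase, so their markers were set beside Amy1. The summed intensity of 14 salivary markers lay between 3284 and 3454 in transgenic and between 3475 and 3787 in wild-type prostates. That sum is carried mostly by Egf, a growth factor gene, and Bhlha15, and the mean log2(intensity + 16) of the list overlapped between genotypes, at 6.72, 6.60 and 6.67 in transgenic mice 1, 2 and 3, against 6.45, 6.53 and 6.61 in wild-type mice 1, 2 and 3. The mean of 7 of the 14 lay above the lower end of the background scale in transgenic and of 6 in wild-type prostates. Smr2, a submandibular gland gene, was the only one that passed the threshold upward, at 145.0, 143.5 and 156.6 in transgenic mice 1, 2 and 3, against 18.3, 22.7 and 10.5 in wild-type mice 1, 2 and 3. Its log2 change was 2.33 ± 0.14 (SE), with an adjusted p of 1.2e-04 (limma), and ran from 1.39 with an added constant of 64 to 3.10 with 1, since its wild-type values were at background. Bhlha15, a transcription factor of secretory acinar cells, was lower, at 755.3 ± 18.8 in transgenic and 1057 ± 40.9 in wild-type prostates (SD, n = 3 each), with an adjusted p of 0.020 (limma). That call was lost without wild-type mouse 2 or any 1 transgenic mouse, at an adjusted p between 0.100 and 0.120, and at 0.154 without wild-type mouse 1 and transgenic mouse 3 together; Smr2 stayed called there, with a change of 2.32. Other salivary markers, Prol1, Smr3a, Bpifa2 and Car6, had values of at most 52.1 in all 6 mice, below the background scale. Dcpp1, Aqp5, Lpo and Muc19 had means above its lower end in both genotypes, and none of them was called. Dcpp1 ran from 117.5 to 263.1 in transgenic and from 163.7 to 211.2 in wild-type prostates. Aqp5 ran from 162.7 to 180.9 in transgenic and from 190.7 to 231.3 in wild-type prostates.

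Of 17 pancreatic acinar markers none passed the threshold, and their summed intensity overlapped between genotypes, from 1209 to 1312 in transgenic and from 1129 to 1591 in wild-type prostates. The mean of 7 of the 17 lay above the lower end of the background scale in each genotype. Among these, Clps, the gene of the lipase cofactor colipase, had 171.4 ± 32.0 in transgenic and 272.3 ± 65.9 in wild-type prostates (SD, n = 3 each), and Rbpjl, an acinar transcription factor gene, had 159.4 ± 15.4 in transgenic and 147.2 ± 18.6 in wild-type prostates (SD, n = 3 each). Cela1, Cela2a, Cpa1, Ctrl and Sycn were also among the 7. Of these, Cela1 ran from 127.2 to 141.6 in transgenic and from 98.7 to 182.3 in wild-type prostates. Cpa1 ran from 101.3 to 106.6 in transgenic and from 84.6 to 119.2 in wild-type prostates. The zymogen genes Cpb1 and Ctrb1, the lipase gene Cel and the transcription factor gene Ptf1a were at most 68.0 in all 6 mice, within or below the background scale. Of 11 hepatocyte markers none passed, with sums from 571.2 to 667.6 in transgenic and from 535.1 to 653.9 in wild-type prostates.

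Macrophages are a main site of Dnase2a, and the summed intensity of 15 macrophage markers was higher in every transgenic mouse, from 2586 to 2894, against 2181 to 2347 in wild-type mice. The median log2 change of the list was 0.19, and 11 of 15 means in transgenic and 10 of 15 in wild-type prostates lay above the lower end of the background scale. The protease Ctss was the only one that passed, with a log2 change of 0.91 ± 0.16 (SE) and an adjusted p of 0.036 (limma), and its call was lost without any single mouse other than wild-type mouse 1, at up to 0.175, while it was 0.0156 without wild-type mouse 1 and transgenic mouse 3 together. The part of these cells in the values of Dnase2a was not tested. Seminal vesicle markers summed to 4503, 3048 and 10571 in transgenic mice 1, 2 and 3, against 4923, 780.8 and 948.4 in wild-type mice 1, 2 and 3. The mean log2(intensity + 16) of the list was 7.83, 7.07 and 8.69 in transgenic mice 1, 2 and 3, against 7.82, 5.90 and 6.03 in wild-type mice 1, 2 and 3. By either measure the genotypes overlapped only through wild-type mouse 1. Without wild-type mouse 1 and transgenic mouse 3 they did not overlap.

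Of the 10 measured seminal vesicle markers, 2 were called higher and 1 lower, and the median log2 change was 0.69 against 0.01 over all genes. Without wild-type mouse 1 and transgenic mouse 3, 4 of the 10 were called. Pate4 had 1782, 1203 and 3027 in transgenic mice 1, 2 and 3, against 941.9, 25.3 and 36.7 in wild-type mice 1, 2 and 3. Its genotypes did not overlap, but with all mice it was not called, at an adjusted p of 0.201 (limma). Ceacam10, a seminal vesicle secretory gene, had intensities of 889.9, 948.9 and 958.7 in transgenic mice 1, 2 and 3, against 48.0, 39.1 and 39.8 in wild-type mice 1, 2 and 3. Spinkl, which encodes a protease inhibitor-like secreted protein, had 905.4, 473.5 and 638.7 in transgenic mice 1, 2 and 3, against 40.6, 15.2 and 18.4 in wild-type mice 1, 2 and 3. Both genes separated the genotypes as Amy1 and Dnase2b did, with wild-type values at background, wild-type mouse 1 included. The log2 change of Ceacam10 was 4.03 ± 0.09 (SE), at an adjusted p of 7.4e-07 (limma), and 4.08 without wild-type mouse 1 and transgenic mouse 3. That of Spinkl was 4.08 ± 0.28 (SE), at an adjusted p of 2.8e-04 (limma), and 4.36 without those mice. Both were called in all 16 settings, though the sizes depended on the added constant. Svs3a, a seminal vesicle secretory gene, was lower, at 135.9, 203.2 and 154.6 in transgenic mice 1, 2 and 3, against 340.8, 477.1 and 609.8 in wild-type mice 1, 2 and 3. Its log2 change was -1.43 ± 0.22 (SE), at an adjusted p of 0.019 (limma), and -1.61 with an adjusted p of 0.048 once wild-type mouse 1 and transgenic mouse 3 were left out. The call was lost without wild-type mouse 2, transgenic mouse 1 or transgenic mouse 3, at an adjusted p of up to 0.107. The part of seminal vesicle tissue in the values of Amy1 and Dnase2b was not tested.

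**Figure D3:**
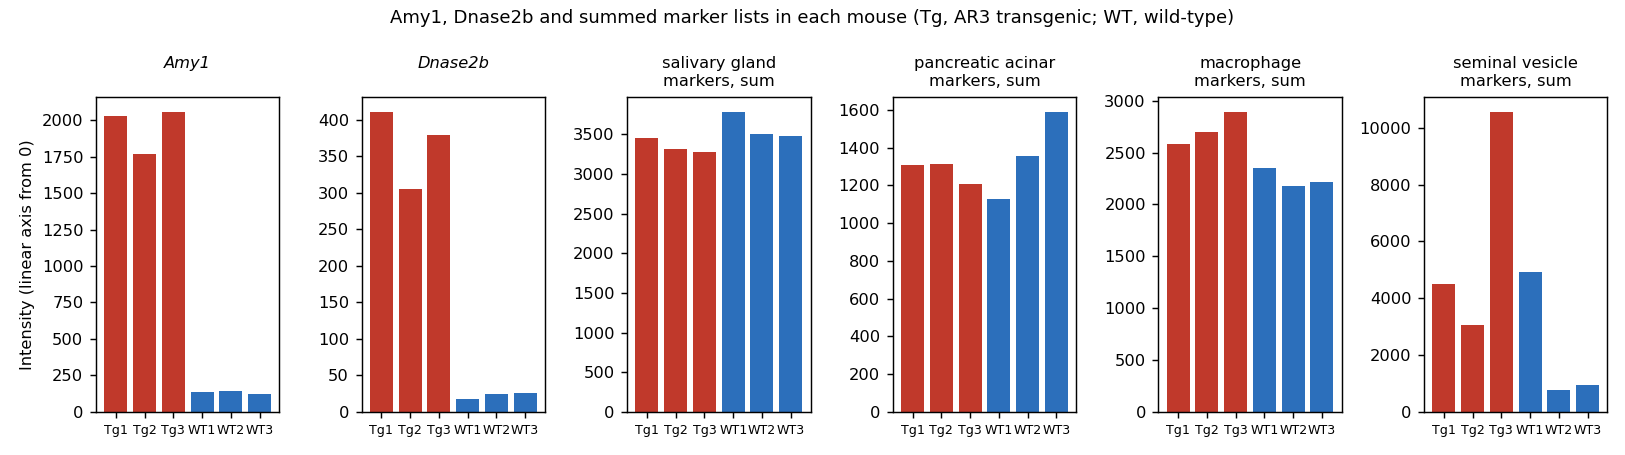
Intensity (linear axes from 0) of Amy1 and Dnase2b and summed intensity of the salivary gland, pancreatic acinar, macrophage and seminal vesicle marker lists in each mouse, AR3 transgenic (Tg, red) left of wild-type (WT, blue). Amy1 and Dnase2b are higher in Tg1 to Tg3 than in WT1 to WT3. A sum weights the brightest markers most, so the salivary sum does not show the dim gene Smr2, which is higher in all transgenic mice. Ceacam10 and Spinkl, also higher in all transgenic mice, are part of the seminal vesicle sum but cannot be told apart in it.

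Amy1 and Dnase2b both lie on chromosome 3. Their chromosomal neighbours were taken as the 3 nearest protein-coding genes on either side in the RefSeq table that had a probe set of their own. That leaves out the pancreatic amylases next to Amy1, whose 6 shared probe sets were all called higher. Of the 6 neighbours of Amy1, none was called, and their log2 changes ran from -0.08 for Col11a1 to 0.38 for Vav3. Of the 6 neighbours of Dnase2b, none was called either, with log2 changes from -0.13 for Uox to 0.44 for Gng5. Among all 30 neighbours of the 5 genes, 0 were called by limma, and 1.64% of all genes were. Rnase1 lies among its relatives on chromosome 14, and its neighbours Rnase6, Rnase2b, Ang2 and Ear14 had log2 changes between -0.09 and 0.15.

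Likeness of pattern was measured as the root mean square distance, over the 6 arrays, between log2(intensity + 16) values centred on each gene's own mean. The genes nearest to Amy1 were Ceacam10 (0.19), Dnase2b (0.26), Lcn2 (0.27), Klk1b27 (0.29) and Sult1b1 (0.30). Those nearest to Dnase2b were Sult1b1 (0.18), Klk1b7-ps (0.20), Mug1 (0.20), Amy1 (0.26) and Ache (0.30). Ceacam10 is on the seminal vesicle list. The order depended on the added constant, because wild-type Dnase2b is at background. With a constant of 64 in place of 16, Dnase2b was the gene ranked 9 from Amy1 and Amy1 the gene ranked 42 from Dnase2b, and with a constant of 1 the ranks were 2 and 1. The distance rests mostly on the step between the 3 transgenic and the 3 wild-type mice, which all these genes share, and so describes the size of that step.

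**Figure D4:**
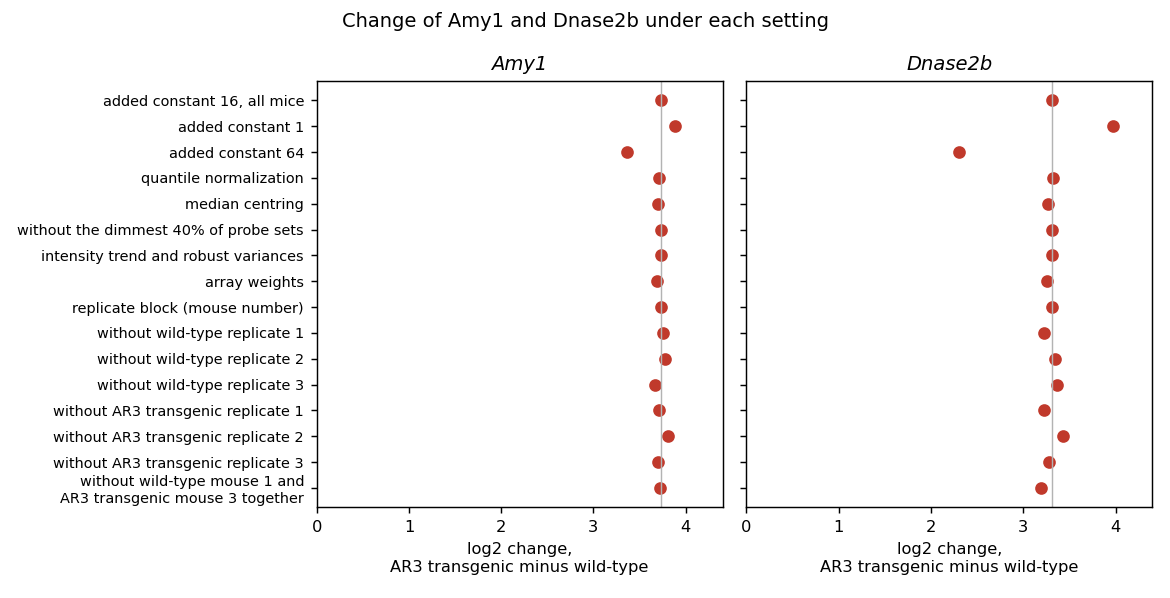
Change of Amy1 and Dnase2b on the log2 scale, AR3 transgenic minus wild-type, under the setting reported (first row, grey line) and 15 alternatives. Amy1 runs from 3.36 to 3.88 and Dnase2b from 2.31 to 3.97, both lowest with an added constant of 64 and highest with 1.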

How the data were processed

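RNA from 6 dissected prostates was biotin-labelled with a whole-transcript kit for Affymetrix arrays, per the labels' protocols. The deposited table held 1 linear intensity per probe set and array, taken as already normalized by the authors; no source used here names the software. Of 35512 probe sets, 6568 below the gene-level identifier range were left out. The platform annotation gave 1 symbol to 21789 of the other 28944, several to 1621 and none to 5534; a gene with several probe sets was represented by the one brightest on average. The scale of the test was log2(intensity + 16), which understates changes of dim genes. In R 4.3.3, limma 3.58.1 (lmFit, eBayes) compared 3 AR3 transgenic with 3 wild-type arrays, two-sided, with Benjamini-Hochberg adjustment over the 28944 and a threshold of 0.05. This called 425 probe sets, 305 higher and 120 lower (314 and 264 after median centring). The fit was tested on simulated data.

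The genes and lists were chosen with earlier results of these data known. Named list genes are those called on the lists described and some of the 4 smallest p per list. Rnh1, Ctsd, Egf, Clps, Rbpjl, the markers named as dim, the brighter markers set beside those and the neighbours were named for function or position, after values were seen. Some list genes are not analysed here. Promoter windows are from RefSeq, GRCm38.p6, and motifs were chosen with the windows in view. Alternatives were added constants of 1 and 64, median centring, quantile normalization, array weights, robust variances with an intensity trend, a filter on the 40% dimmest probe sets, a replicate block, leaving out each mouse and, chosen after seeing the data, leaving out wild-type mouse 1 and transgenic mouse 3 together. Array batches were not tested.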

Additional observations from a re-analysis of the deposited data

How the results depend on the processing

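The count of 2 called genes among the 5 held under all alternatives, leaving out each mouse included, and Amy1 and Dnase2b were the genes called in each. Dnase1 had no value without the dimmest 40% of probe sets. Its log2 change ran from -0.0256 without wild-type mouse 1 to 0.218 without wild-type mouse 3, and was -0.0591 without wild-type mouse 1 and transgenic mouse 3 together; that of Rnase1 ran from -0.0320 without wild-type mouse 2 to 0.170 without wild-type mouse 1; neither gene was called in any setting. No other probe set with 1 symbol exists for the 5 genes, so that alternative gave no values. The count of called probe sets, 425, moved to 678 with robust variances and an intensity trend, to 1202 with array weights and to 237 without wild-type mouse 1 and transgenic mouse 3 together. Without single mice it lay between 234 and 519. The cause of these moves was not tested. With a replicate block on the mouse number the count was 250. The labels give the numbers no meaning as pairs, and same-numbered mice did not deviate together (correlations of -0.04, 0.05 and -0.16), so the block is given only here; with it 2 of the 5 genes were called, and Nt5e, Irf7, Bhlha15, Ctss and Spink1 were not. Over the 13 lists, 195 counts of called genes under alternatives were made, of which 144 stayed within 1.5 times. These include lists without a call that stayed without one. Of lists with a call, the count for nucleic acid sensing moved under 15 alternatives, for macrophage markers under 11, and for seminal vesicle markers stayed within 1.5 times under 15. The lists are short, and genes at background, such as Dnase1 in all mice, have no measurable level.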

Other observations

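Probe sets annotated to more than 1 gene give values that belong to no single gene. The probe set annotated to both Rnase4 and Ang had intensities of 628.1, 573.1 and 673.2 in transgenic mice 1, 2 and 3, against 630.5, 513.2 and 536.0 in wild-type mice 1, 2 and 3, which overlapped. Its log2 change was 0.16 ± 0.10 (SE), with an adjusted p of 0.61 in the limma fit. A pair of probe sets annotated to both Rnaset2a and Rnaset2b had nearly equal values, the first at 1673, 1597 and 1614 in transgenic mice 1, 2 and 3, against 1388, 1443 and 1493 in wild-type mice 1, 2 and 3. The genotypes did not overlap on it, as for 19.1% of all genes, and its log2 change of 0.17 ± 0.07 (SE) did not pass the threshold, with an adjusted p of 0.39 in the limma fit.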
